A study of Mus musculus with 6 samples.

Results

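Tumour cells of 1 cell line were recovered from 2 organs of 1 mouse, and their RNA was compared gene by gene. The comparison set 1 library of cells from the femur, called bone here, against 1 library of cells from the lung, 2 of the 6 libraries of the study, over all 23791 named entries of the count table. Of these, 13832 could be tested and 10003 reached 5 CPM (read counts relative to library size, scaled by the TMM factors of edgeR) in bone or lung. The other 4 libraries served as a yardstick, because each bone-minus-lung difference was set beside the difference between duplicates a and b of RM1 and of RM1536 for the same gene.

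RM1 is a mouse prostate cancer line of C57BL/6 origin. RM1536 was derived from it by pooling 3 clones, and carries a fluorescent marker (eCFP) and a luciferase (luc2). The bone and lung cells were RM1536 cells that had been stained with the dye PKH26, injected into the heart of the mouse and taken 16 days later. They were negative for the dye, which is diluted when cells divide. The yardstick libraries were RM1536 in culture (labelled, never injected, a and b) and RM1 in culture (unlabelled, never injected, a and b). All 4 groups were sorted by FACS and then grown in DMEM with 5% serum to 85% confluency, so bone and lung here are cultures regrown from each site, not tissue. There is 1 library per site, and which clones of the pool founded each culture is not given. The p values here set the difference between bone and lung against the spread between duplicate libraries. The labels do not say that a and b were separate cultures, so part of that spread may be technical. Bone and lung were assumed to vary like the cultures.

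Prostate cancer spreads mainly to bone, and the cells that grow there meet osteoblasts, osteoclasts and marrow, while cells in the lung meet a thin epithelium and a dense bed of capillaries. Cells seeded in an organ are exposed to selection and to local signals, and part of what differs between sites can persist when the cells are grown outside the body. Genes often studied in this setting code for matrix proteins and proteases, adhesion receptors, factors that act on bone cells such as parathyroid hormone-related protein, and antigen presentation. Programmes such as sterol synthesis, DNA replication and the stress response to lack of amino acids also change with nutrients and density in culture.

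Depth was 22763835 counts in bone, 26903505 in lung and 24291590 to 30303566 in the cultures. Among markers of other cell types, several defining genes were at 0 and others were not. The leukocyte antigen Ptprc, the fibroblast antigen Thy1, the endothelial genes Emcn and Robo4, the lung epithelial protease Napsa, the osteoblast factor Sp7 and the adipocyte hormone Adipoq had 0 reads in bone and in lung, where 3 reads would equal 0.132 and 0.118 CPM. Other markers of stromal and bone cells were expressed in every library, among them Col3a1 (919 CPM in bone, 413 in lung), Gsn (648 and 377) and Runx2, a transcription factor of osteoblasts (78.8 in bone, 68.4 in lung and 47.8 to 58.6 in the cultures). The summed level of 16 leukocyte markers was 27.0 CPM in bone, 29.0 in lung and 5.99 to 59.3 in the cultures. Cd68 gave most of it at both sites, with 19.7 and 20.2 CPM. Lyz2, a lysozyme of myeloid cells, stood at 2.68 CPM in bone and 2.88 in lung.

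Bone and lung differed by 2-fold or more, on the log2(CPM + 0.5) scale, in 1009 of the 10003 genes (10.1%), of which 461 were higher in bone (4.61%) and 548 higher in lung (5.48%). The duplicates differed by that much in 516 of 9921 genes for RM1536 (5.2%) and 479 of 9960 for RM1 (4.81%), each counted over genes at 5 CPM in either duplicate. A stricter rule was therefore used to choose genes for description. A gene was past the duplicate rule when bone and lung differed by 2-fold or more and by more than both duplicate pairs did. There were 406 such genes higher in bone (4.06%) and 444 higher in lung (4.44%), 850 together (8.5%). The rule involves no test, and with total counts in place of TMM scaling it gave 504 and 372. Genes between 5 and 20 CPM were past it in 14.9% of cases, against 6.78% from 20 to 100 CPM and 5.87% above 100 CPM.

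The large differences lay mainly between the sites. Over 10501 genes at 5 CPM in any library, 80 differed by 8-fold or more between bone and lung, 19 between the RM1536 duplicates and 17 between the RM1 duplicates. For 32-fold or more the counts were 8, 0 and 1. Small differences were less distinct: the bone-minus-lung difference was the largest of the 3 in 40.6% of genes, that of RM1536 in 34.3% and that of RM1 in 25.0%.

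Beside the injected line, many genes past the rule stayed within the 2-fold range of the RM1536 libraries at both sites, 172 of the 406 higher in bone (42.4%) and 185 of the 444 higher in lung (41.7%). For 132 of the 406 genes higher in bone, lung was more than 2-fold below both RM1536 libraries while bone was within that range, and for 80 bone was above that range while lung was within it. For 139 of the 444 genes higher in lung, lung was above that range with bone within it, and for 99 bone was below it with lung within. Bone and lung departed in opposite directions in 8 and 16 genes.

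By edgeR's quasi-likelihood test, 1 gene fell below an adjusted p of 0.05, which is 0.00723% of the 13832 tested. It was Trp53i11, a gene induced by p53, at chr2:93187548-93201759 on the plus strand (GRCm38). Bone had 0 reads and lung 1021, and in CPM the level was 0 in bone, 40.3 in lung, 34.7 and 26.1 in RM1536 a and b, and 2.97 and 2.90 in RM1 a and b. Bone thus stood below every other library while lung was at the level of the injected line, and the fold was at least 306 when bone is set at 3 reads. The adjusted p was 0.0443 by edgeR's quasi-likelihood test with Benjamini-Hochberg adjustment, and was 0.0835 without RM1536 a and 0.0663 without RM1536 b, within a range of 9.61e-36 to 0.276 over all fits tried. At an unadjusted p below 0.05 there were 523 genes higher in bone (3.78%) and 648 higher in lung (4.68%), and with total counts the split turned to 733 and 528. DESeq2 called 213 genes, 62 higher in bone and 151 higher in lung, and leaving out RM1 b raised the edgeR count to 32. In bulk RNA, fewer cells that express a gene and less RNA per cell cannot be told apart, for Trp53i11 and for all genes that follow.

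The gene with the largest difference was Col1a1, the main chain of type I collagen, at chr11:94936224-94953042 on the plus strand. It stood at 0.790 CPM in bone and 604 in lung, against 8.85 and 27.8 in RM1536 and 17.4 and 18.2 in RM1. Bone was therefore below every culture and lung above every culture. The reads were 18 and 15301, a difference of -8.87 on the log2 scale and a ratio of 764 after scaling (exact 95% interval of counting 483 to 1290). Its adjusted p by edgeR's quasi-likelihood test was 0.147 with all libraries, 0.0352 without RM1536 a and 0.0313 without RM1536 b, within a range of 1.85e-62 to 0.366 over all fits. Col1a2, whose product pairs with that of Col1a1 in type I collagen, had 3 reads in bone and 7 in lung. Of 9 fibroblast and stromal markers at the CPM minimum, 6 were higher in lung, Col1a1 among them, and 3 were higher in bone. On the lung side Pdgfrb stood at 1.32 CPM in bone and 19.8 in lung, and Pi16 at 2.15 and 9.16. Pdgfra stood at 14.0 and 28.3, Dcn at 17.1 and 24.3 and Ly6a at 27.4 and 44.3. On the bone side were Col3a1 (919 in bone, 413 in lung), Gsn (648 and 377) and Dpt (5.44 and 4.50). Pdgfrb in RM1536 b (59.5) and Dcn in RM1536 a (57.8) were above lung. Thy1 had 0 reads at both sites and at most 1 read in any culture. The part of stromal cells in the difference was not tested.

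**Figure D1:**
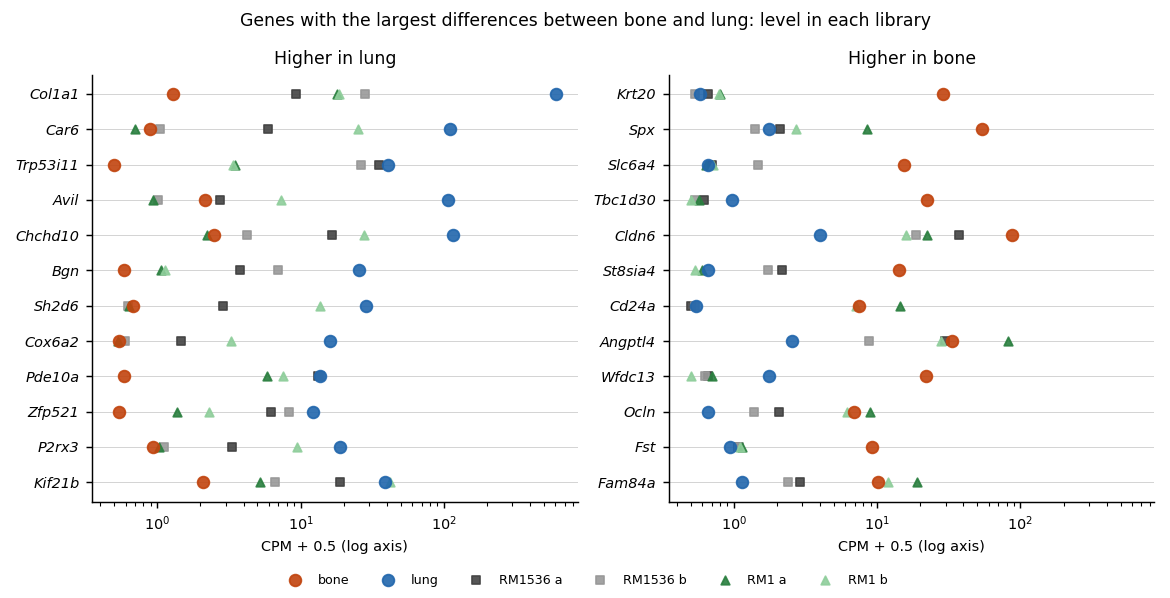
Level of the 12 named genes with the largest difference in each direction, 1 row per gene, in CPM + 0.5 on a log axis, with 1 point per library (large circles bone and lung, squares RM1536, triangles RM1). Col1a1 spans 0.790 CPM in bone to 604 in lung with the 4 cultures between, while for Krt20 only bone, at 28.3 CPM, stands away from the rest.

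Several genes were nearly silent in bone but not in lung, and some of them were also low in RM1. Biglycan (Bgn), a small matrix proteoglycan, stood at 0.0878 CPM in bone and 25.3 in lung, with 3.30 and 6.44 in RM1536 and 0.568 and 0.637 in RM1. Pde10a, a phosphodiesterase that breaks down cyclic nucleotides, stood at 0.0878 in bone, 13.3 in lung, 12.8 and 13.1 in RM1536 and 5.38 and 7.01 in RM1. For Pde10a the lung and the injected line were level and bone was low, as for Trp53i11. Zfp521, a zinc finger transcription factor, had 1 read in bone and 297 in lung. It stood at 5.71 and 7.86 CPM in RM1536 and at 0.868 and 1.805 in RM1. Over all genes, those with 0 reads at 1 site and at least 5 CPM at the other were Trp53i11 and Gata4, a developmental transcription factor, and both were at 0 in bone. Gata4 had 153 reads in lung and stood at 6.76 and 2.59 CPM in RM1536 and at 0.735 and 2.05 in RM1.

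Other genes high in lung were also unequal between duplicates. Car6, a secreted carbonic anhydrase, stood at 0.395 CPM in bone and 109 in lung, but also at 5.47 and 0.550 in RM1536 a and b and at 0.200 and 24.8 in RM1 a and b. Avil (advillin, an actin-binding protein), Chchd10 (a mitochondrial protein), Sh2d6, Cox6a2 (a cytochrome oxidase subunit of heart and muscle), P2rx3 (an ATP-gated channel of sensory neurons) and Kif21b (a kinesin) were likewise unequal between duplicates, and for Kif21b RM1 b, at 41.4 CPM, stood above lung, at 38.2. In 7 of the 12 genes highest in lung, RM1536 a was 2-fold or more above RM1536 b and RM1 b 2-fold or more above RM1 a, against 36 of all 444 (8.11%). Among the 12 highest in bone the mirror of that order was seen in 0.

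Among genes high in bone, Krt20, a keratin of gut and urinary tract lining at chr11:99428403-99438150 on the minus strand, led. It stood at 28.3 CPM in bone, 0.0789 in lung, 0.161 and 0.0324 in RM1536 and 0.301 and 0.283 in RM1. Bone alone was raised, and the reads were 645 and 2. Slc6a4, the serotonin transporter, stood at 15.0 in bone, 0.158 in lung, 0.201 and 0.971 in RM1536 and 0.134 and 0.212 in RM1. Tbc1d30, a Rab GTPase-activating protein, stood at 21.8 in bone and at 0.474 or less in the other 5 libraries. St8sia4, which builds polysialic acid, stood at 13.7 in bone, 0.158 in lung and 1.65 or less elsewhere. Fst (follistatin, which binds activins) stood at 8.74 in bone and between 0.434 and 0.634 in the other 5. Bone was apart from all other libraries in these genes. On the log2(CPM + 0.5) scale the duplicates lay within 2-fold of each other except for Slc6a4 in RM1536. Without the added 0.5, some duplicates with few reads lay further apart. These were Krt20 (4 and 1 reads) and Tbc1d30 (3 and 1) in RM1536, and St8sia4 (3 and 1) in RM1, among others.

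A second kind of gene high in bone was low in lung. Cldn6, a tight junction claudin, stood at 87.1 CPM in bone, 3.51 in lung, 36.9 and 18.2 in RM1536 and 21.7 and 15.3 in RM1. Lung was below and bone above all cultures. Angptl4, a secreted inhibitor of lipoprotein lipase, stood at 33.0 in bone, 2.05 in lung, 29.2 and 8.25 in RM1536 and 81.7 and 27.2 in RM1. Lung was the lowest library, but a exceeded b in both duplicate pairs, by 1.77 (RM1536) and 1.57 (RM1) on the log2 scale. Ocln (occludin, another tight junction protein) and Cd24a (a surface sialoglycoprotein) were at 6.37 and 6.98 CPM in bone and at 4 reads and 1 read in lung. Cd24a was at 0 and 1 read in the injected line as well, and at 13.9 and 6.58 CPM in RM1.

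Differences between the sites ran partly along those between the duplicates. Across the 10003 genes, bone minus lung had a Pearson r of 0.53 (Spearman 0.51) with RM1 a minus b and of 0.37 (0.40) with RM1536 b minus a. These 3 pairs share no library, but all values share the scaling and the gene set, genes are not independent, and the orientation of the duplicates (a minus b, or b minus a) was chosen after the values were seen. Of the 1009 genes with a 2-fold difference, 813 (80.6%) had the same sign in RM1 a minus b and 722 (71.6%) in RM1536 b minus a. Only 103 of the 406 genes past the rule and higher in bone, and 129 of the 444 higher in lung, had differences under 0.5 (log2) in both duplicate pairs (25.4% and 29.1%), against 63.5% of all 10003 genes. Whether the recovered cultures differ along the same culture state as the duplicates was not tested.

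**Figure D2:**
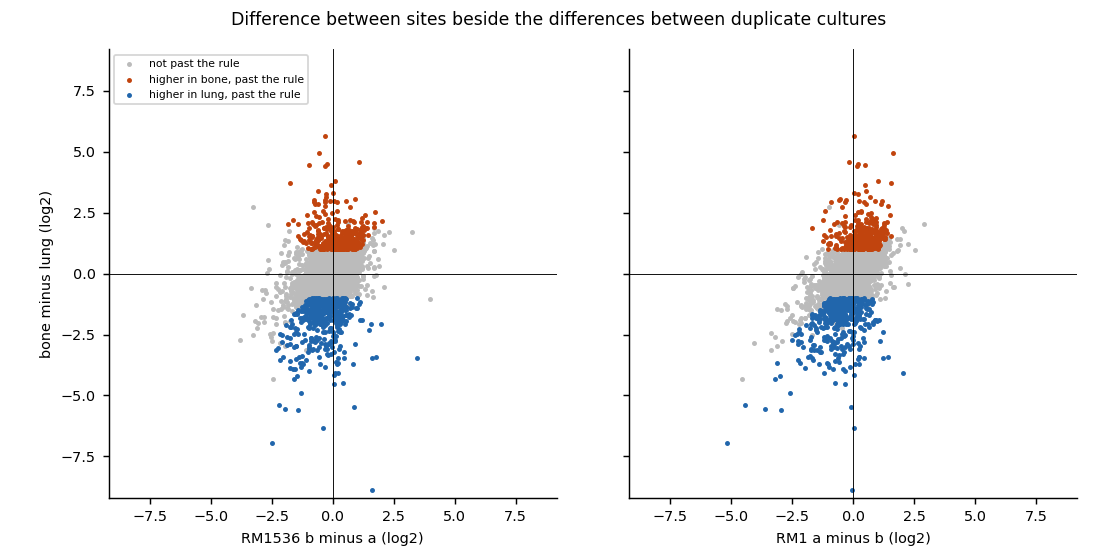
Each point is 1 of 10003 genes; the y axis is the bone-minus-lung log2 difference and the x axes are the log2 differences of the RM1536 duplicates (b minus a, left) and the RM1 duplicates (a minus b, right). Genes past the duplicate rule are coloured (406 orange, 444 blue); the cloud tilts upward in both panels (r 0.37 and 0.53), and Col1a1 is the lowest point, at -8.87.

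Some gene lists fell into 2 kinds, while others, such as p53 targets, fell into neither. Over all 10003 genes the median bone-minus-lung difference was 0.02 (log2), and 51.5% were positive. Lists for sterol synthesis, replication, stress and interferon had medians far from that value, and so had the same lists in the duplicates, where the medians were smaller or larger than between the sites. Lists for collagens, matrix proteins and the contractile cytoskeleton had negative medians, and their medians in the duplicates, oriented as above, were near 0 or positive. Matrix proteases and inhibitors (-0.73) had negative medians in both duplicate pairs (-0.69 in RM1536 b minus a and -0.11 in RM1 a minus b). Every count of list members past the rule below stands beside 4.06% of all genes on the bone side and 4.44% on the lung side.

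**Figure D3:**
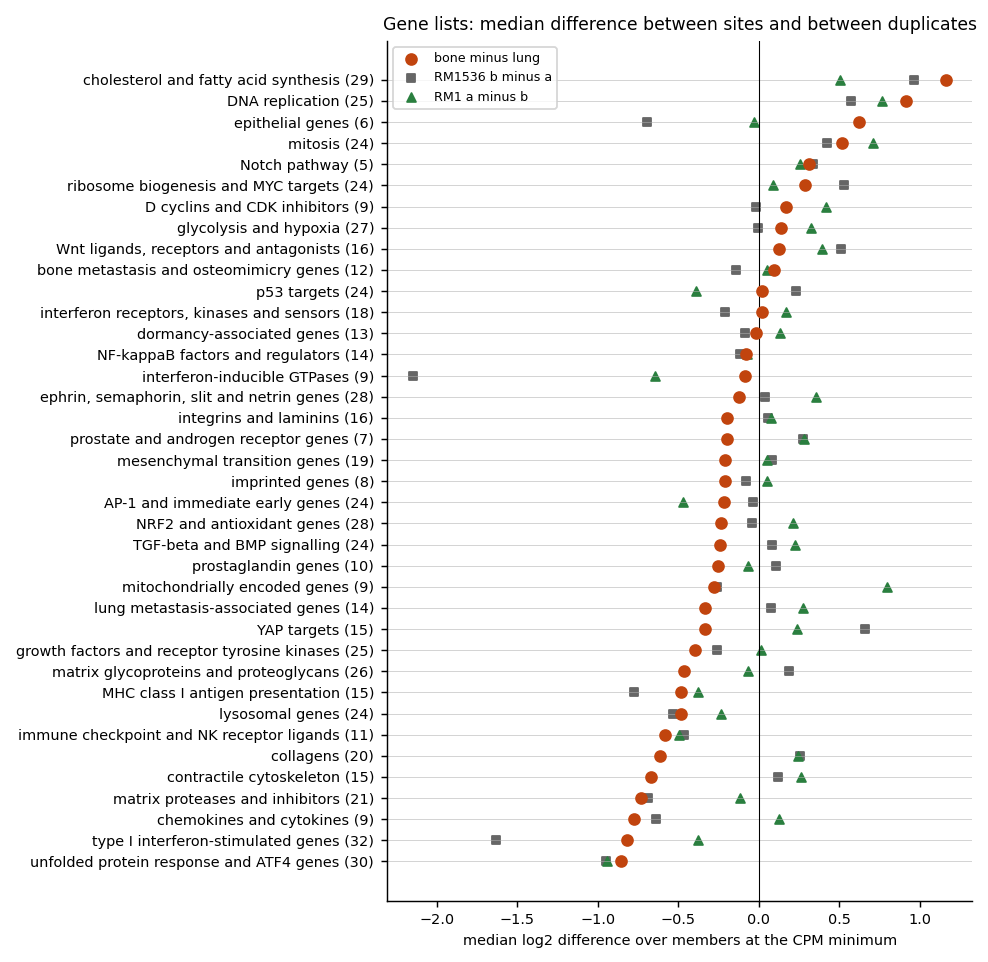
Median log2 difference over the members at 5 CPM in bone or lung (number in parentheses) of the 38 lists with at least 5 such members, markers aside: circles, bone minus lung; squares, RM1536 b minus a; triangles, RM1 a minus b. Cholesterol and fatty acid synthesis lies at the top (1.16) with both duplicates on its side, and collagens (-0.61) and contractile cytoskeleton (-0.67) lie on the negative side with the duplicates at or above 0.

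All 29 genes of cholesterol and fatty acid synthesis at the CPM minimum were higher in bone, with a median of 1.16, and 12 were past the rule (4.06% of all genes were past it in that direction). The injected line differed by 0.96 between its own duplicates (b above a) and RM1 by 0.51 (a above b) over the same genes. Fdps, farnesyl diphosphate synthase, stood at 7.81 CPM in bone, 0.947 in lung, 3.58 and 13.0 in RM1536 and 5.31 and 4.11 in RM1, although near-identical copies make its count uncertain. Elovl6, which lengthens fatty acids, stood at 209 in bone, 42.3 in lung, 116 and 267 in RM1536 and 225 and 117 in RM1. Pmvk (phosphomevalonate kinase) had 28.4 and 7.14, and Hsd17b7, an enzyme of late sterol synthesis, 45.8 and 12.3. Lung was the lowest of the 6 libraries for each of these 4 genes, while bone lay inside the range of the cultures. By edgeR's quasi-likelihood test no member had an adjusted p below 0.05, and 9 had an unadjusted p below 0.05.

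These enzymes are classic targets of the SREBP factors, which bind sterol regulatory elements. The sequence TCACNCCAC was searched on both strands in the 250 bases before the start of each gene (RefSeq, GRCm38.p6). It occurs in 1.05% of 32851 promoters, or in 1.22% of 27025 genes when any promoter of a gene counts. Of the 19 matched members 1 held it, Hmgcs1 (hydroxymethylglutaryl-CoA synthase, chr13:119690101-119690350, plus strand). Hmgcs1 was past the rule at 146 CPM in bone and 60.9 in lung. It is shown for that match, with the motif in capitals.
Hmgcs1: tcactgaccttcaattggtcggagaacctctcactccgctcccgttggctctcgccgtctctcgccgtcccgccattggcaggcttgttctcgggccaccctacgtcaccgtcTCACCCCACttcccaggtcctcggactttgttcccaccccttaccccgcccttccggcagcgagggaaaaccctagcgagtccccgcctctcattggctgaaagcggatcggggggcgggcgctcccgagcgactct

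DNA replication genes were higher in bone in 24 of 25 cases, with a median of 0.91. Of these, 6 were past the rule, beside 4.06% of all genes in that direction. The cyclins of S phase entry and the origin licensing factor Cdc6 differed most. Ccne1 (cyclin E1) stood at 17.2 CPM in bone, 4.38 in lung, 14.4 and 27.2 in RM1536 and 24.9 and 10.2 in RM1. Cdc6 stood at 37.4 in bone, 10.4 in lung, 38.5 and 83.4 in RM1536 and 34.1 and 13.2 in RM1. Pole, the catalytic subunit of DNA polymerase epsilon, stood at 47.8 and 20.05. Lung was again the lowest library for these 3 genes and bone lay inside the range of the cultures. The duplicates had medians of 0.58 (RM1536, b above a) and 0.77 (RM1, a above b). Mitosis genes had a median of 0.52 with 20 of 24 higher in bone, but 1 past the rule, Cdc20, the activator of the anaphase-promoting complex, at 187 and 80.7 CPM.

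The letters TTTNNCGC, a form of the E2F element, occur on either strand in 4.28% of promoters. By gene, they occur in 4.94% of all genes with a promoter and in 6 of the 19 matched replication genes (31.6%). The promoter of Mcm6, a subunit of the replicative helicase, holds 3 matches and is shown for them (chr1:128359706-128359955, minus strand, GRCm38.p6), with 2 of them overlapping. Mcm6 stood at 218 CPM in bone and 132 in lung and was not past the rule.
Mcm6: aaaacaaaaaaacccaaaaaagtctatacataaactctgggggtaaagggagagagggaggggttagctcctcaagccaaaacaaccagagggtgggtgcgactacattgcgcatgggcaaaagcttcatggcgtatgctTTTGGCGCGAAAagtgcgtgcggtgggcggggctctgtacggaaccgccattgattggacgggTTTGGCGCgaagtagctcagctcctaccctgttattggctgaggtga

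Genes of the unfolded protein response and of ATF4, the factor that answers shortage of amino acids, were lower in bone in 26 of 30 cases. Their median was -0.86, and 5 were past the rule (4.44% of all genes were past it in that direction). Ppp1r15a, which restores translation by dephosphorylating eIF2alpha, stood at 71.1 CPM in bone, 411 in lung, 96.5 and 22.5 in RM1536 and 51.4 and 275 in RM1. Chac1, which breaks down glutathione, stood at 54.6 in bone, 234 in lung, 164 and 42.5 in RM1536 and 47.8 and 185 in RM1. Atf5, a transcription factor of the same pathway, stood at 132 and 470, and Shmt2, a mitochondrial enzyme of serine breakdown, at 260 and 612. Lung was the highest library for Ppp1r15a, Chac1 and Atf5, and RM1 b was next. The duplicates had medians of 0.95 (RM1536 a above b) and 0.94 (RM1 b above a) over these 30 genes, larger than the difference between bone and lung.

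The letters TGATGNAA, a form of the element bound by C/EBP and ATF factors, occur on either strand in 3.45% of promoters. By gene, they occur in 3.91% of all genes with a promoter and in 8 of the 27 matched members (29.6%). They are shown for the members past the rule that hold them, Chac1 (chr2:119350992-119351241, plus strand) and Herpud1 (chr8:94386179-94386428, plus strand), the latter a protein of endoplasmic reticulum-associated degradation at 72.6 CPM in bone and 163 in lung. Capitals mark the match, which lies on the reverse strand in both.
Chac1: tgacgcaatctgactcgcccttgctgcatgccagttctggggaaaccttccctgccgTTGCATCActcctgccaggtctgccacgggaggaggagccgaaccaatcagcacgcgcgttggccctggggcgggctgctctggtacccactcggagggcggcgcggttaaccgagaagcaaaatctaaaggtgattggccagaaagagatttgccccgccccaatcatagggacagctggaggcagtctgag
Herpud1: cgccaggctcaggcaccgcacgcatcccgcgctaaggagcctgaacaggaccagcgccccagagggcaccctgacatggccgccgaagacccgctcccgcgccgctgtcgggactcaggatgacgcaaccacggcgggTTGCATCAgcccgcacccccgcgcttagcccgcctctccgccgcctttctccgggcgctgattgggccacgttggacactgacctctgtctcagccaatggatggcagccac

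**Figure D4:**
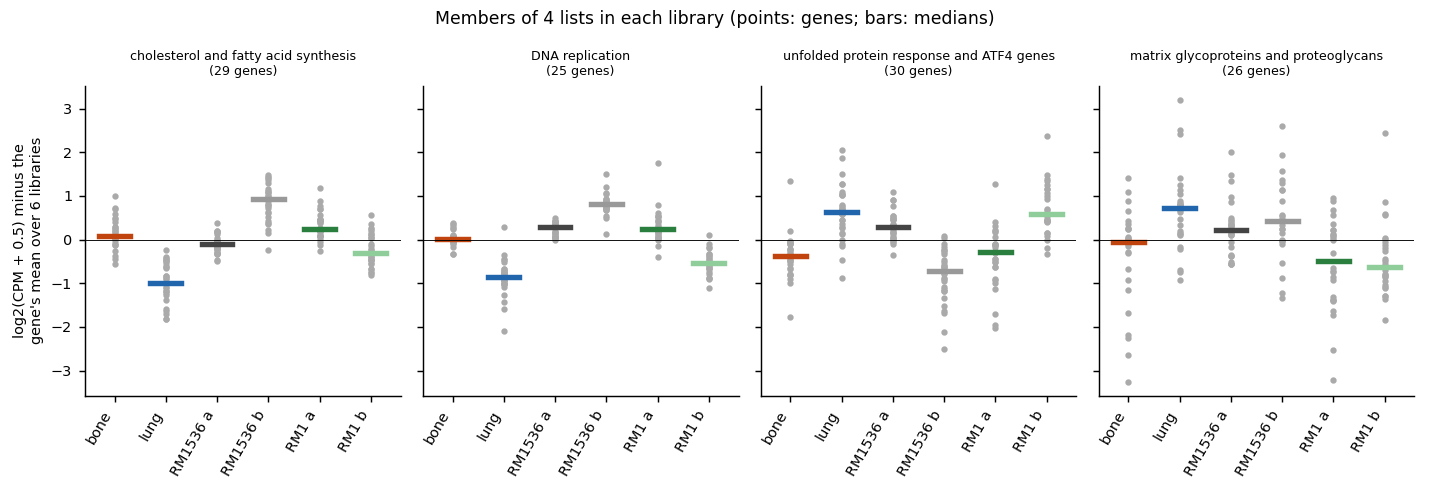
Points are the members of 4 lists in each library, as log2(CPM + 0.5) minus the gene's mean over the 6 libraries, and bars are the list medians. In the first pair of panels (29 and 25 genes) lung is lowest and RM1536 b highest, in the third (30 genes) the order is turned, and in the matrix panel (26 genes) lung is highest and RM1 lowest.

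Genes stimulated by type I interferon were lower in bone in 28 of 32 cases, with a median of -0.82, but 3 were past the rule. The difference was smaller than that within the injected line, where a exceeded b by a median of 1.64. Uba7, the E1 enzyme for ISG15, stood at 2.11 CPM in bone, 7.66 in lung, 13.4 and 4.24 in RM1536 and 45.7 and 64.5 in RM1. Both sites were low beside RM1, whose median level over the list was 132 and 157 CPM against 8.17 in bone and 15.2 in lung. Lgals3bp, a secreted galectin ligand, stood at 61.0 and 174, and Ifi27 at 28.2 and 69.6. Isg15 itself, the ubiquitin-like modifier, was not past the rule at 7.95 in bone, 27.0 in lung, 47.6 and 3.24 in RM1536 and 211 and 363 in RM1. The letters GAAA, any 2 bases and GAAA again, a form of the interferon-stimulated response element, occur on either strand in 2.98% of promoters. By gene, they occur in 3.46% of all genes with a promoter and in 6 of the 26 matched members (23.1%). Isg15 is shown because 3 overlapping matches lie in it (chr4:156200819-156201068, minus strand), marked by capitals.
Isg15: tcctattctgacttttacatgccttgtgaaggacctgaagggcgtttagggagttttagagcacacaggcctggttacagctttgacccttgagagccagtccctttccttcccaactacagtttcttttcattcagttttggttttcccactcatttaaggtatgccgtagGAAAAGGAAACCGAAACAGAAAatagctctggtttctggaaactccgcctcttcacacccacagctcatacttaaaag

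Of 15 genes of MHC class I antigen presentation, 12 were lower in bone, with a median of -0.48, while RM1536 a exceeded b by 0.77 and RM1 b exceeded a by 0.38. Past the rule were 3, all on the lung side, beside 4.44% of all genes. Those past the rule were H2-M3, a nonclassical class I molecule (1.32 CPM in bone, 9.55 in lung), Nlrc5, the transactivator of class I genes (2.28 and 9.63), and B2m, the light chain (281 and 625). B2m stood at 512 and 292 in RM1536 and at 841 and 1150 in RM1, so that bone lay near RM1536 b, and lung and RM1536 a were higher. H2 genes resemble each other, and how reads shared between them were counted is not given in the sources used here. Lysosomal genes were lower in bone in 22 of 24 cases with a median of -0.49, while RM1536 a exceeded b by 0.53. Of these 1 was past the rule, Hexa, a hexosaminidase subunit, at 104 and 210 CPM.

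Matrix lists differed in another way by their medians, though not by all of their leading members. Of 20 collagen and collagen-modifying genes, 7 were past the rule on the lung side and 0 on the bone side, beside 4.44% and 4.06% of all genes. Lower in bone were 15 of the 20, and the median was -0.61. The same genes had medians of 0.26 (RM1536 b above a) and 0.24 (RM1 a above b), opposite in sign to the median between the sites. After Col1a1, the largest differences were in Col5a3 (6.76 CPM in bone, 27.0 in lung), Col6a2 (29.4 and 111) and Col18a1, whose product is the source of endostatin. Col18a1 stood at 583 in bone, 1899 in lung, 709 and 495 in RM1536 and 349 and 676 in RM1, with lung above all others. For Col5a3 and Col18a1 the duplicates differed along the same order as for the stress genes. RM1536 a exceeded b by 0.41 and 0.52 (log2), and RM1 b exceeded a by 0.64 and 0.95. For Col1a1 and Col6a2 RM1536 b exceeded a instead, by 1.60 and 1.11. Of the 7 past the rule, 0 had differences under 0.5 in both duplicate pairs, against 63.5% of all genes. Col3a1, named after its values were seen, ran the other way with 919 in bone and 413 in lung, and was not past the rule.

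Matrix glycoproteins and proteoglycans had a median of -0.46. Of 26 genes, 9 were past the rule on the lung side and 1 on the bone side (4.44% and 4.06% of all genes). Besides Bgn these were led by Wisp1, a matricellular Wnt target (6.45 CPM in bone, 118 in lung, 27.9 and 29.9 in RM1536, 7.98 and 19.04 in RM1). Fbn1, fibrillin 1 of elastic microfibrils, stood at 38.1 in bone, 491 in lung, 217 and 254 in RM1536 and 8.85 and 41.4 in RM1. Lung was above the injected line and bone below it in both genes. Fbln5, a fibulin, stood at 1.67 and 23.4. Fibronectin (Fn1), on the mesenchymal list, stood at 779 in bone, 5293 in lung, 2769 and 2975 in RM1536 and 739 and 1569 in RM1, so that lung was highest and bone lay with RM1. Fibroblast and stromal markers leaned the same way: of 9 at the CPM minimum 6 were lower in bone, with a median of -0.69, and 3 were past the rule on the lung side (Col1a1, Pdgfrb and Pi16) and 0 on the bone side. Summed over 14 genes their level was 1636 CPM in bone, 1525 in lung and 1187 to 2012 in the cultures, to which Col3a1 and Gsn, both higher in bone, added most there. Pdgfrb, a receptor of stromal cells, also stood at 59.5 in RM1536 b. The part of these markers in the matrix differences was not tested. RM1 b exceeded a by 1.20 (log2) for Wisp1, 2.17 for Fbn1, 1.68 for Fbln5 and 1.09 for Fn1, as for the stress genes. RM1536 b exceeded a for the same genes, by 0.10, 0.23, 1.63 and 0.10, which was the other way. Of the 10 matrix glycoproteins and proteoglycans past the rule, 2 had differences under 0.5 in both duplicate pairs.

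Of 21 matrix proteases and inhibitors, 17 were lower in bone, with a median of -0.73. On the lung side 6 were past the rule and on the bone side 2 (4.44% and 4.06% of all genes). Mmp13, a collagenase, stood at 6.28 CPM in bone, 103 in lung, 28.4 and 8.74 in RM1536 and 13.9 and 18.5 in RM1. Mmp19 stood at 3.47 and 36.8. Mmp3 (stromelysin 1) stood at 168 and 771, and Adam19, a membrane metalloprotease, at 32.8 and 150. Lung was above the other 5 libraries for Mmp13, Mmp3 and Adam19, whereas Mmp19 reached 68.2 in RM1 b. RM1536 a exceeded b by a median of 0.69 over this list, while RM1 a minus b had a median of -0.11.

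Adhesion and cytoskeletal genes lay on both sides. Of 16 integrins and laminins, 3 were past the rule on the lung side and 2 on the bone side, beside 8.5% of all genes in both directions together. The former included Itga8 (1.36 CPM in bone, 13.3 in lung, 11.4 and 10.2 in RM1536) and Lamb2, the laminin beta 2 chain (17.9 and 76.4). Itga3 (64.5 and 28.3) and Itga1 (9.92 and 4.38) were those on the bone side, though Itga3 was below the injected line at both sites. The contractile list was lower in bone in 13 of 15 genes (median -0.67), with Cnn2, a calponin (101 and 275), and Myh9, nonmuscle myosin heavy chain (1535 and 3199), past the rule. Of 15 YAP targets, 4 were past it on the lung side and 1 on the bone side. Ankrd1 stood at 0.263 and 9.35 and Cyr61 at 29.7 and 78.8, while Nt5e, the ecto-enzyme that makes adenosine, stood at 13.8 in bone and 1.46 in lung.

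Genes linked to metastasis in bone did not lean to bone as a group. Of 12 at the CPM minimum, 2 were past the rule in each direction, beside 4.06% (bone side) and 4.44% (lung side) of all genes. The median was 0.09. Pthlh, parathyroid hormone-related protein, which drives osteoclast formation through osteoblasts, stood at 74.2 CPM in bone, 15.4 in lung, 33.0 and 34.7 in RM1536 and 22.4 and 12.7 in RM1. Jag1, a Notch ligand that acts on bone cells, stood at 54.5 in bone, 19.1 in lung, 14.9 and 7.47 in RM1536 and 28.8 and 18.6 in RM1. Bone was the highest of the 6 libraries for both. Csf1, the growth factor of macrophages and osteoclast precursors, stood at 54.2 in bone, 206 in lung, 118 and 132 in RM1536 and 118 and 108 in RM1, and with Mmp13 it lay on the lung side.

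Genes associated with lung metastasis were split likewise, with a median of -0.34. Of 14, 3 were past the rule on the bone side and 2 on the lung side (4.06% and 4.44% of all genes). Ptgs2 (cyclooxygenase 2) stood at 127 CPM in bone, 665 in lung, 123 and 125 in RM1536 and 109 and 307 in RM1. Tnc (tenascin C) stood at 3.12 in bone, 17.6 in lung, 26.5 and 75.9 in RM1536 and 65.9 and 188 in RM1. Lung was thus high for Ptgs2 but low for Tnc, where bone was lower still. Angptl4, given above, and Ackr3, a scavenging chemokine receptor (10.4 and 3.63), lay on the bone side. Ptgfr, a prostaglandin receptor of the prostaglandin list, stood at 36.5 in bone, 5.05 in lung and 5.02 or less in the cultures.

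Among secreted signals, TGF-beta and BMP genes held 2 past the rule on the bone side and 3 on the lung side out of 24. Of all genes, 4.06% and 4.44% were past it on those sides. Inhba, which codes for the subunit of activin A, stood at 24.8 CPM in bone and 9.95 in lung beside its antagonist Fst. Inhbb, the subunit of activin B, stood at 3.69 in bone, 28.7 in lung, 31.4 and 30.5 in RM1536 and 3.57 and 6.58 in RM1, and Bmp4 at 2.28 and 11.1. Of the Wnt list, Wnt5a, a noncanonical ligand, stood at 1.89 in bone, 26.0 in lung and 16.8 and 23.3 in RM1536, and Dkk2, a Wnt antagonist, at 153 and 46.6 with 78.6 and 144 in RM1536. Il33, an alarmin, stood at 5.97 in bone, 53.2 in lung, 16.9 and 3.17 in RM1536 and 1.64 and 2.87 in RM1. Ccl2, the monocyte chemokine, stood at 59.7 in bone and 19.97 in lung, which was the lowest of the 6 libraries.

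Myc, on the list of ribosome biogenesis and MYC targets, stood at 8.34 CPM in bone, 124 in lung, 38.4 and 15.2 in RM1536 and 24.2 and 48.1 in RM1. It was the only member of the list past the rule, and the list's median was 0.28, on the bone side. Ligands seen by T and NK cells were lower in bone in 8 of 11 genes, with 4 past the rule on the lung side and 2 on the bone side. Ulbp1, a ligand of the activating receptor NKG2D, stood at 0.790 in bone, 13.6 in lung and 8.29 and 9.58 in RM1536. Cd80, a costimulatory ligand, stood at 8.03 in bone, 0.947 in lung and 3.50 and 4.01 in RM1536. Padi4, a peptidylarginine deiminase named after its values were seen, stood at 112 in bone, 14.0 in lung, 3.34 and 2.56 in RM1536 and 78.4 and 99.6 in RM1, so bone lay with unlabelled RM1.

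Lists near the all-gene median included p53 targets (0.02 over 24 genes, 1 past the rule on the bone side and 2 on the lung side), interferon receptors and sensors (0.02, 18 genes) and genes linked to dormancy (-0.02, 13 genes). Trp53i11 belongs to the first of these. Plk2, another p53 target, stood at 28.4 CPM in bone and 122 in lung, and Zmat3 at 185 and 87.6. AP-1 and immediate early genes had a median of -0.21 with 0 of 24 past the rule. The medians of p53 targets, interferon receptors and dormancy genes changed sign under another scaling.

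Position in the genome also separated the sites. Genes on chromosome 3 had a median bone-minus-lung difference of 0.31 (log2) over 478 genes, of which 76.6% were positive, and those on chromosome 5 a median of 0.24 over 635 genes (73.7%). Genes on chromosome 9 had a median of -0.34 over 549 genes (22.95% positive), on chromosome 18 -0.29 over 259 (25.9%) and on chromosome 15 -0.25 over 409 (26.9%). All other autosomes and X lay between -0.03 and 0.10, and in the duplicates the medians of these 5 chromosomes lay between -0.08 and 0.09. The shift was present in each of 3 parts of chromosomes 3, 5, 9 and 15 that hold about equal numbers of genes, while the parts of chromosome 18 had -0.08, -0.38 and -0.42.

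Set against the mean of the RM1536 libraries, bone was the site that departed on chromosomes 3 (0.36 in bone, 0.06 in lung), 9 (-0.32 and 0.04) and 18 (-0.35 and 0.01). On chromosome 18 RM1 a and b also lay below that mean, at -0.50 and -0.38, so bone lay with unlabelled RM1 there. RM1 a and b stood at -0.02 and -0.02 on chromosome 3 and at -0.09 and -0.11 on chromosome 9. Lung departed on chromosome 15 (0.26, against -0.04 in bone), where Myc lies. On chromosome 5 the sites lay on opposite sides (0.11 and -0.10). Counts past the rule had the same lean on chromosomes 3 and 9. On chromosome 3, 48 genes were past it on the bone side (10.04%) and 10 on the lung side (2.09%). On chromosome 9 these were 8 genes (1.46%) and 49 genes (8.93%). Of all genes, 4.06% were past it on the bone side and 4.44% on the lung side. With the chromosome median subtracted from each gene, an alternative added after seeing the data, 357 genes were past the rule on the bone side and 426 on the lung side, 339 and 399 of them shared with the original sets. The cause of the chromosome-wide shifts was not tested.

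**Figure D5:**
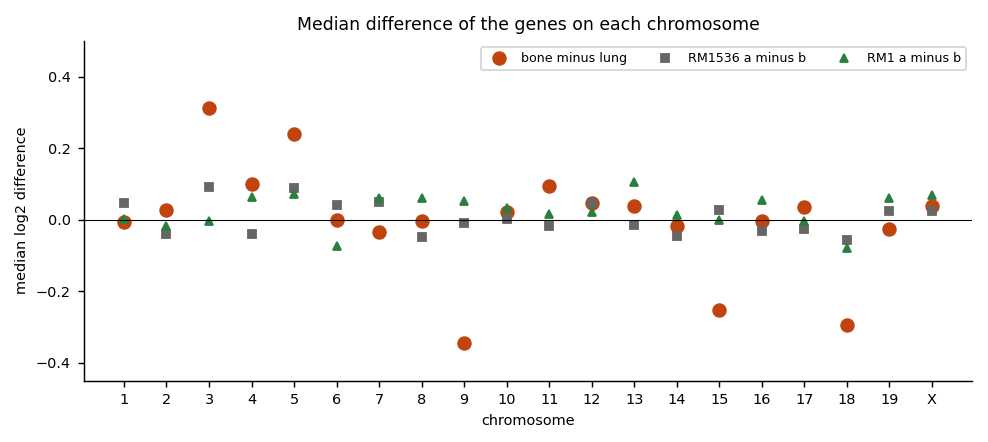
Median log2 difference of the genes at the CPM minimum on each autosome and X: circles, bone minus lung; squares, RM1536 a minus b; triangles, RM1 a minus b. Chromosomes 3 and 5 lie above and 9, 15 and 18 below the others for bone minus lung, and the duplicates stay between -0.08 and 0.10.

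Neighbouring genes were past the rule together in a few places, beside 8.5% of all genes past it in either direction. There were 8 runs of 3 neighbouring genes at the CPM minimum that were all past the rule on 1 side, for example Pla2g4a, Ptgs2 and Ptgs2os2 on chromosome 1 (chr1:149829618-150164948), all higher in lung. Pla2g4a, which releases arachidonic acid for cyclooxygenase 2, stood at 24.2 CPM in bone and 84.5 in lung. Steap1 and Steap2, metalloreductases studied as prostate antigens, formed another with Cfap69 (chr5:5579278-5749326), again higher in lung. Steap1 stood at 20.6 in bone, 184 in lung, 81.1 and 51.6 in RM1536 and 35.2 and 117 in RM1. The runs higher in bone all lay on chromosomes 3 and 5, whose genes leaned to bone as a whole. How many runs the share of genes past the rule would give without any link between neighbours was not tested. Ptgs2 and Ptgs2os2, an antisense neighbour, cannot be told apart by reads if counting ignored the strand, which is not given in the sources used here.

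Markers of the cells that reside in each organ were mixed. The lung surfactant gene Sftpc had 1 read in bone and 0 in lung, and the club cell gene Scgb1a1 likewise, while Ager, of alveolar type I cells, had 20 reads in bone and 40 in lung and Hopx 185 and 97. The osteoblast gene Bglap2 (osteocalcin) had 0 reads in bone and 48 in lung, whereas Runx2, as given above, was highest in bone. The osteoclast protease Ctsk stood at 6.28 CPM in bone and 13.1 in lung. Lyz2 had 61 and 73 reads at the sites and 0 in the 4 cultures, and its part in the differences between bone and lung was not tested. Endothelial markers summed to 16.5 CPM in bone, 14.1 in lung and 7.38 to 12.8 in the cultures, but the members differed. Vwf stood at 1.23 CPM in bone, 4.89 in lung and 0.991 or less in the cultures, Tie1 at 6.67 in bone and 3.20 in lung, and Cdh5 had 0 and 2 reads. The leukocyte gene Laptm5 had 55 reads in bone and 7 in lung.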

How the data were processed

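RNA was measured by sequencing (NEBNext Ultra libraries, RNA integrity number above 6.8, HiSeq2500) in 6 libraries of cultured mouse cells. The values are unnormalised counts for each gene, as deposited by the authors; per the submitters' processing notes the genome was GRCm38 and the tools were TopHat2 2.1.10, HTSeq and edgeR. No counting mode, strand setting or annotation is given in the sources used here, so near-identical, overlapping and antisense genes are uncertain. A nameless entry (0.00626% to 0.00830% of a library's counts) was left out; 23791 entries remained, 1710 of them at 0 everywhere and 27 with names turned into dates.

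Counts were analysed with edgeR 4.0.16 in R 4.3.3 (TMM scaling, factors 0.942 to 1.03; filterByExpr; quasi-likelihood test; 4 groups in 1 model; Benjamini-Hochberg adjustment over 13832 genes; call at 0.05). The spread came from the RM1 and RM1536 duplicates (2 residual degrees of freedom, biological coefficient of variation 0.269). Differences are of log2(CPM + 0.5), which understates changes of low genes. The duplicate rule asked for 5 CPM in bone or lung, a 2-fold difference, and a difference larger than in both duplicate pairs. Lists (48, with 1123 entries; 43 symbols were unmatched) are given as counts and medians without tests. The members and lists were chosen with earlier results of these data known. Named were genes called by edgeR, the 12 largest and 12 smallest differences past the rule (predicted genes aside), up to 4 members per list past the rule or else the highest member, and cell type markers; genes outside that rule were named after their values were seen (Gata4, Col3a1, Padi4), for a promoter match (Hmgcs1, Mcm6, Herpud1, Isg15) or as members of a run (Ptgs2os2, Cfap69). Positions are from GENCODE M21 for 23100 entries by symbol, promoters from RefSeq. Intervals cover counting error only. Alternatives were DESeq2 1.42.0, limma-voom 3.58.1, other scalings, filters, pseudocounts, yardsticks and folds, a replicate block and leaving out each duplicate. The edgeR test was tried on simulated counts with differences set between bone and lung. It called 53.8% of genes set 2 apart (log2), 87.9% of those set 4 apart and 98.5% of those set 6 apart. It also called 21 of 13231 genes with no set difference.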

Additional observations from a re-analysis of the deposited data

How the results depend on the processing

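The number of genes called between bone and lung depended on the model, and the cause was not tested. Against 1 gene with edgeR, DESeq2 called 213 and the fit with no low-count filter 754, and the fit of bone, lung and RM1536 alone 34. limma-voom, total counts and a stricter filter called 0 each (at an unadjusted p below 0.05 they had 1145, 1261 and 971 genes). Leaving out 1 duplicate at a time gave 1 to 32 calls, the 32 without RM1 b. No paired analysis was possible because bone and lung are 1 pair from 1 mouse and carry no replicate letter; with the letters a and b of the cultures as a replicate block 0 genes were called (710 at an unadjusted p below 0.05), and with the letters crossed, added after RM1536 b minus a was seen to run with RM1 a minus b, 934. Trp53i11 had adjusted p values from 9.61e-36 (no filter) to 0.276 (limma-voom) over these fits, and without RM1536 a or b the single call was Col1a1 instead.

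Against 406 and 444 genes past the duplicate rule in bone and lung, the counts were 229 and 261 at 20 CPM and 124 and 237 at 3-fold, since both ask for more. The other 8 settings gave 323 to 558 and 372 to 604. Total counts shifted the median of all genes by 0.09 (log2) and moved the share on the bone side from 47.8% to 57.5%, and 3-fold moved it to 34.3%. No named gene past the rule changed the sign of its difference under the scalings, pseudocount or chromosome subtraction. Cd68 (-0.03, 0.05 with total counts), mt-Co1 (-0.11, 0.08 with chromosome subtraction) and Ccnd1 (0.03 and about 0 with RLE), none past it, did, as did list medians near 0 (p53 targets, interferon receptors, inducible GTPases, NF-kappaB, dormancy and Ly6 genes). With 1 library per site and 1 mouse, no setting covers the spread between cultures of a site or between animals.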

Other observations

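Guidance, growth factor and metabolic genes, not described above, are given beside the 8.5% of all genes that were past the duplicate rule in either direction. Of 28 ephrin, semaphorin, slit and netrin genes, 4 were past the duplicate rule on the lung side and 1 on the bone side (median -0.12). Sema4d stood at 0.307 CPM in bone, 7.02 in lung, 2.37 and 0.938 in RM1536 and 5.71 and 15.2 in RM1. Nrp1, a receptor for semaphorins and VEGF, stood at 2.502 in bone and 10.6 in lung, both below the 27.2 and 63.4 of RM1536. Sema3a, a secreted repellent, was on the bone side at 162 and 63.9, with 98.3 and 102 in RM1536.

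Of 25 growth factors and receptor tyrosine kinases, 4 were past the rule on the lung side and 1 on the bone side (median -0.40). Bdnf, a neurotrophin, stood at 16.1 CPM in bone and 61.2 in lung, and Igfbp6, which binds IGF-II, at 93.1 and 227. Flt1, a VEGF receptor, stood at 105 in bone, 41.4 in lung, 20.1 and 12.3 in RM1536 and at 70.6 or more in RM1, so bone lay with unlabelled RM1. Glycolysis and hypoxia genes had a median of 0.14 over 27 genes, with 3 past the rule, all on the bone side. Slc16a3, the exporter of lactate, stood at 590 in bone, 209 in lung, 141 and 121 in RM1536 and 59.2 and 40.1 in RM1, above every culture at both sites. Of 28 antioxidant genes 2 were past the rule, under the share of all genes, both on the lung side: Osgin1 (1.84 and 7.89) and Gclc, which limits glutathione synthesis (23.9 and 61.7). Mitochondrially encoded genes had 0 of 9 past the rule and a median of -0.28, while RM1 a exceeded b by 0.79.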
